A study of Rattus norvegicus with 6 samples.

Results

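RNA of Col1a1, Col1a2, Col3a1 and Tgfb1 was examined in the penile cavernous tissue of 3 Norm rats and 3 SHR rats, with 1 library per rat. These 4 genes were taken by their Ensembl identifiers (ENSRNOG00000003897, ENSRNOG00000011292, ENSRNOG00000003357 and ENSRNOG00000020652) from the 23091 genes of the deposited tables. The Norm group consisted of normotensive Wistar-Kyoto rats and the SHR group of spontaneously hypertensive rats, a strain in which blood pressure becomes high without treatment. Both groups were described as 10 weeks old, and the labels name no drug for either. Because the groups are separate strains, blood pressure and other strain differences cannot be told apart.

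Fibrillar collagens are the rope-like proteins that bear tension in connective tissue. Col1a1 and Col1a2 encode the chains of type I collagen, the stiff and most abundant fibril of tendon, bone and scar. Col3a1 encodes the single kind of chain in type III collagen, which forms thinner and more pliable fibrils in vessels and hollow organs, often together with type I. Tgfb1 encodes TGF-β1, a secreted growth factor that is stored in latent form in the matrix and, once active, signals through SMAD proteins to raise collagen synthesis. In the corpus cavernosum, collagen surrounds the smooth muscle and the blood-filled sinusoids, and the balance between muscle and collagen sets how far the tissue can expand. The study stained this tissue and reported more collagen I and a lower ratio of smooth muscle to collagen in the SHR group. Staining shows deposited protein, whereas the comparison below is of RNA and does not test that result.

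Among the collagen RNAs, only Col3a1 separated the groups. Ratios within each library compare directly whether the collagen RNAs shifted together. The ratio of Col1a2 to Col3a1 did not overlap between the groups (log2 difference -0.59, exact permutation p = 0.1). That of Col1a1 to Col3a1 did overlap (log2 difference -0.41, exact permutation p = 0.2). With 3 rats per group this p cannot fall below 0.1, so a common shift could not be decided. The intervals of the separate changes overlapped, which does not test a common shift. Relative to the Norm level, these intervals ran from 0.762 to 1.76 times for Col1a1, 0.743 to 1.47 for Col1a2 and 1.19 to 2.14 for Col3a1. Col3a1 stood higher in every SHR rat than in any Norm rat, at 1.60 times the Norm level, but did not pass the threshold after adjustment in edgeR's test. Of the other settings on all rats, Col3a1 passed in 3 and not in 6, so the call depended on the test. With any rat left out it did not pass. Col1a1, Col1a2 and Tgfb1 overlapped between the groups. The ratio of collagen I to collagen III RNA was lower in every SHR rat than in any Norm rat (exact permutation p = 0.1, adjusted 0.30). Col3a1 is the denominator of this ratio, so it is not independent of the Col3a1 result. Single genes whose groups did not overlap in level, in either direction, were common, at 26.1% of all genes tested. No such share was counted for ratios. Type I collagen RNA varied more among the Norm rats than among the SHR rats, in which it was nearly equal.

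The identity of the 4 genes was first checked against the files, which list identifiers only. The gene length that the authors' FPKM (fragments per kilobase of gene, scaled to library size) implies was 5823 to 5824 bases for Col1a1, 4686 bases for Col1a2, 4787 bases for Col3a1 and 1456 bases for Tgfb1, and it hardly varied between libraries. The 3 identifiers named as collagens thus belonged to long genes, and they were among the most abundant of all. Col1a1 had the most counts of any gene in every library except Norm replicate 1, where it ranked 2. Col1a2 ranked 2 or 3, and Col3a1 ranked between 4 and 7. Tgfb1 ranked between 2738 and 4051. Collagen chains are large proteins with long transcripts and TGF-β1 is a smaller one, so none of the 4 identifiers failed the check and none was dropped. The check was coarse, because no reference transcript lengths were used here, and the names rest on the identifiers. No other identifiers were paired with names here, so markers of smooth muscle, endothelium, fat, bone, cartilage or epithelium were not examined. The main text and the supplementary methods also differ on whether the outer urethra membrane was the tissue extracted or was removed first.

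Counts per library summed to between 16608927 and 20017845. In the principal components of all tested genes, Norm replicate 1 stood furthest from the other libraries on the second component, with a score of 37.9. Collagen levels rest on 185799 or more counts in each library, whereas Tgfb1 rests on 669 to 1146. The 95% Wilson interval of its share of the counts extended 5.79% to 7.58% of the value on either side, against at most 0.452% for the collagens. These intervals cover counting error only.

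Upstream sequence of Col1a2, a collagen gene on which TGF-β1 is known to act, is shown from RefSeq (build GRCr8, plus strand, chr4:33518307-33518416). The 110 bases run from 250 to 141 bases before the annotated start, and matches on either strand to the TATA box TATAAA, the CCAAT box and the letters CAGAC, the core of the element to which SMAD proteins bind, are in capitals and do not overlap.
Col1a2: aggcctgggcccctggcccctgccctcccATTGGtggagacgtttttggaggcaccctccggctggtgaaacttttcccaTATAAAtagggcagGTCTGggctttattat
CCAAT lies on the minus strand from 221 bases before the annotated start, TATAAA on the plus strand from 170 bases before it and CAGAC on the minus strand from 156 bases before it. A TATA box usually lies close to where transcription begins, so the annotated start may lie inside the transcript, and the bases nearer to it are not shown. In the same window of 33469 rat promoters, 15.9% hold CCAAT, 5.86% TATAAA and 22.4% CAGAC on either strand. These matches describe the sequence and are not evidence of binding, and only RNA was measured here.

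Col1a1 stood at 4768, 9228 and 6065 FPKM in Norm replicates 1, 2 and 3. In SHR replicates 1, 2 and 3 it stood at 8088, 8272 and 8096 FPKM. The groups overlapped, because Norm replicate 2 lay above all SHR rats while the other Norm rats lay below them. In CPM (counts scaled to library size, here with TMM factors) the mean was 40044 ± 14676 for Norm rats and 46330 ± 912 for SHR rats (SD, n = 3 per group). Its log2FC, the log2 of SHR over Norm, was 0.21 ± 0.26 (standard error), and edgeR gave an adjusted p of 0.706. Its 95% interval, from -0.39 to 0.81, spans changes from 0.762 to 1.76 times the Norm level, so a moderate difference in either direction would not have been detectable with 3 rats per group. In bulk tissue, fewer cells that make a transcript and less of it per cell cannot be told apart.

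Col1a2, whose product is wound together with that of Col1a1, stood at 5379, 8386 and 6419 FPKM in Norm replicates 1, 2 and 3. The SHR replicates 1, 2 and 3 stood at 7465, 7300 and 7396 FPKM. The order of the Norm rats was that of Col1a1, with replicate 2 highest and replicate 1 lowest, and all SHR rats again fell between Norm replicates 2 and 3. The group difference was 0.06 ± 0.22 on the log2 scale (standard error), with a 95% interval from -0.43 to 0.55, and edgeR gave an adjusted p of 0.911. The sign of so small a value was not stable and turned negative without Norm replicate 1 or Norm replicate 3 and with limma's voomWithQualityWeights.

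Col3a1 stood at 2276, 2925 and 2486 FPKM in Norm replicates 1, 2 and 3. In SHR replicates 1, 2 and 3 it stood at 4462, 4634 and 3819 FPKM. The lowest SHR rat lay well above the highest Norm rat. In CPM the mean was 12596 ± 1944 for Norm rats and 20103 ± 1893 for SHR rats (SD, n = 3 per group). The log2FC was 0.67 ± 0.18 (standard error), and its 95% interval ran from 0.25 to 1.10, or 1.19 to 2.14 times the Norm level. The p from edgeR was 0.00575 before adjustment and 0.0817 after it, which did not pass the threshold of 0.05, and the size of the change was below the log2FC of 1 taken here as the minimum for a differentially expressed gene (DEG). Permuting the group labels of log2 CPM (exact, two-sided) gave p = 0.1, the smallest that 3 rats against 3 allow.

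The call on Col3a1 depended on the test. DESeq2, the package named in the study's methods, gave an adjusted p of 0.000512 with a log2FC of 0.67, and voomWithQualityWeights gave an adjusted p of 0.0404 with a log2FC of 0.60. The direction was positive with each rat left out in turn, at a log2FC between 0.59 and 0.81, and the adjusted p from edgeR was then between 0.0639 and 0.290. Groups that did not overlap were common in these libraries, at 26.1% of the 13299 genes tested, and at 13.4% for genes higher in the SHR group. Read against this, 1 of 4 members without overlap is not a result about the members as a set.

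Tgfb1 stood at 26.9, 32.4 and 37.1 FPKM in Norm replicates 1, 2 and 3. In SHR replicates 1, 2 and 3 it stood at 32.0, 42.7 and 32.3 FPKM. The groups overlapped, and SHR replicate 2 alone lay above all Norm rats. Its mean was 47.7 ± 4.68 CPM for Norm rats and 50.7 ± 8.78 CPM for SHR rats (SD, n = 3 per group). The group difference was 0.09 ± 0.15 on the log2 scale (standard error, with an adjusted p of 0.793 by edgeR), with a 95% interval from -0.25 to 0.43, and it turned to -0.06 both without SHR replicate 2 and with voomWithQualityWeights. A change beyond 1.34 times the Norm level, or below 0.840 times it, lies outside this interval.

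**Figure D1:**
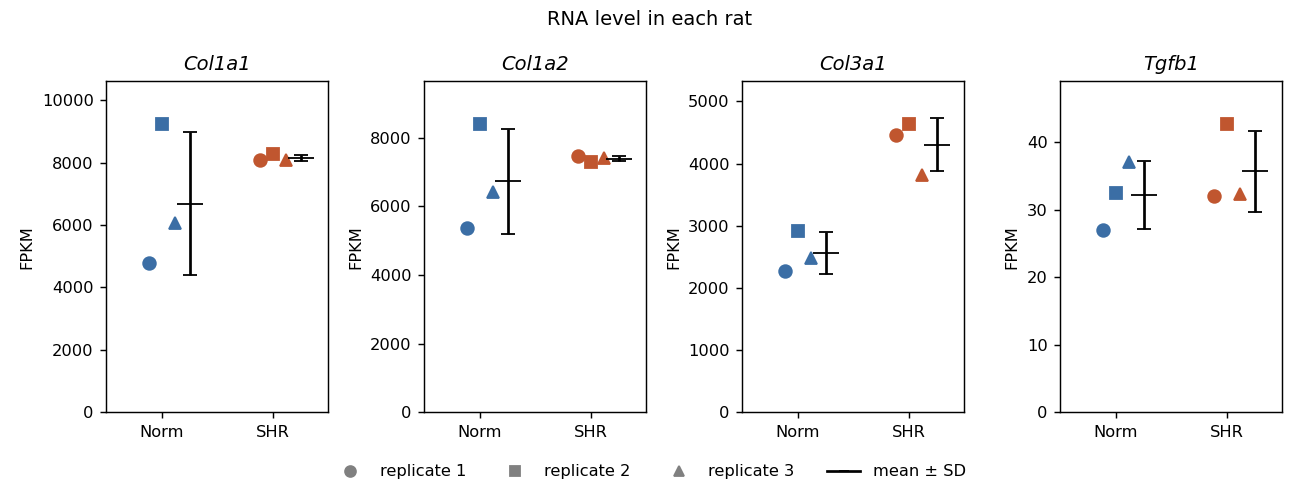
RNA levels of the 4 genes in FPKM (vertical axes, from 0) in each Norm and SHR rat, with a symbol for each replicate number and the mean ± SD of each group in black. Col3a1 separates the groups, at 2276 to 2925 FPKM in Norm rats and 3819 to 4634 FPKM in SHR rats, while the other genes overlap.

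With edgeR, 0 of the 4 genes had an adjusted p under 0.05, where 4.06% of all genes tested did, and none was a DEG, which 2.59% of all genes tested were. Before adjustment, 1 of the 4 had a p under 0.05, against 20.5% of all genes tested. DESeq2 called 1 of the 4 (8.48% of all genes with an adjusted p) and voomWithQualityWeights called 1 of the 4 (11.9% of all genes tested), in both cases Col3a1. Limma on FPKM rescaled to an equal sum per library, a setting chosen after the data were seen, also called Col3a1 (4.02% of all genes tested). By its p from edgeR, Col3a1 ranked 937 of the genes tested, and 8.05% of them had a higher log2FC. Col1a1, Tgfb1 and Col1a2 ranked 8423, 9582 and 11438.

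**Figure D2:**
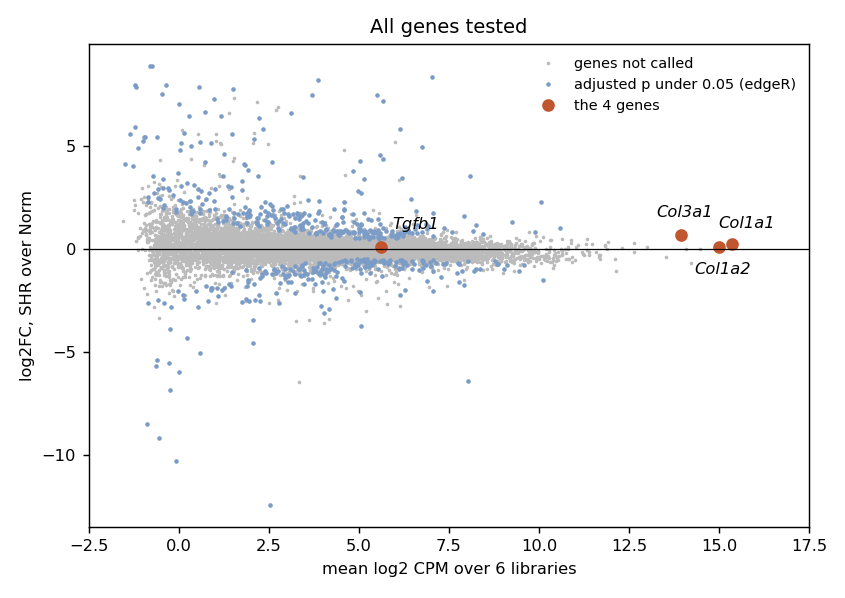
The log2FC (SHR over Norm, vertical axis) of all genes tested against their mean log2 CPM over the 6 libraries (horizontal axis), with genes called by edgeR in blue and the 4 genes in orange. The 3 collagens lie at the far right among the most abundant genes, and Col3a1 lies above Col1a1 and Col1a2 at 0.67.

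The balance of the collagens was then compared within each library, where a ratio of FPKM values does not depend on how libraries are scaled to each other. The collagen I to III ratio, the summed FPKM of Col1a1 and Col1a2 over that of Col3a1, was 4.46, 6.02 and 5.02 in Norm replicates 1, 2 and 3. In SHR replicates 1, 2 and 3 it was 3.49, 3.36 and 4.06. Every SHR rat lay below every Norm rat, and SHR replicate 3 and Norm replicate 1 were the nearest. The mean was 5.17 ± 0.792 for Norm rats and 3.63 ± 0.371 for SHR rats (SD, n = 3 per group), and on the log2 scale the group difference was -0.50, or 0.706 times the Norm ratio. The exact two-sided permutation test gave p = 0.1, the smallest possible for 3 rats against 3. Adjusted over the 6 ratios and shares tested this way, it was 0.30. With each rat left out the log2 difference stayed negative, between -0.60 and -0.39.

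The separation was clearer against Col1a2 than against Col1a1. The ratio of Col1a2 to Col3a1 was 2.36, 2.87 and 2.58 in Norm replicates 1, 2 and 3 and 1.67, 1.58 and 1.94 in SHR replicates 1, 2 and 3, without overlap (exact permutation p = 0.1). The ratio of Col1a1 to Col3a1 was 2.09, 3.16 and 2.44 in the Norm replicates and 1.81, 1.79 and 2.12 in the SHR replicates, where SHR replicate 3 exceeded Norm replicate 1 (exact permutation p = 0.2). Expressed as a share, Col3a1 made up 14.2% to 18.3% of the summed FPKM of the 3 collagens in Norm rats and 19.8% to 22.9% in SHR rats. This share is the same measure in another form and adds no independent evidence.

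The chains of type I collagen kept close to each other. The ratio of Col1a1 to Col1a2 FPKM was 0.886, 1.10 and 0.945 in Norm replicates 1, 2 and 3. It was 1.08, 1.13 and 1.09 in SHR replicates 1, 2 and 3. Across the Norm rats this ratio was highest in replicate 2, the rat with the most of both chains, and lowest in replicate 1, the rat with the least. The group means were 0.977 ± 0.111 and 1.10 ± 0.0261 (SD, n = 3 per group), with overlap between the groups and an exact permutation p of 0.3.

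By level per length, Col1a1 and Col1a2 therefore could not be ordered in the Norm group, where their difference changed sign between rats, while Col1a1 was above Col1a2 in all 3 SHR rats. Col3a1 was below both in every library, and Tgfb1 was far below all 3 collagens. There were 2.66, 1.84 and 2.97 FPKM of Tgfb1 for every 1000 FPKM of type I collagen in Norm replicates 1, 2 and 3, and 2.06, 2.74 and 2.09 in SHR replicates 1, 2 and 3. These values overlapped fully (exact permutation p = 0.9).

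**Figure D3:**
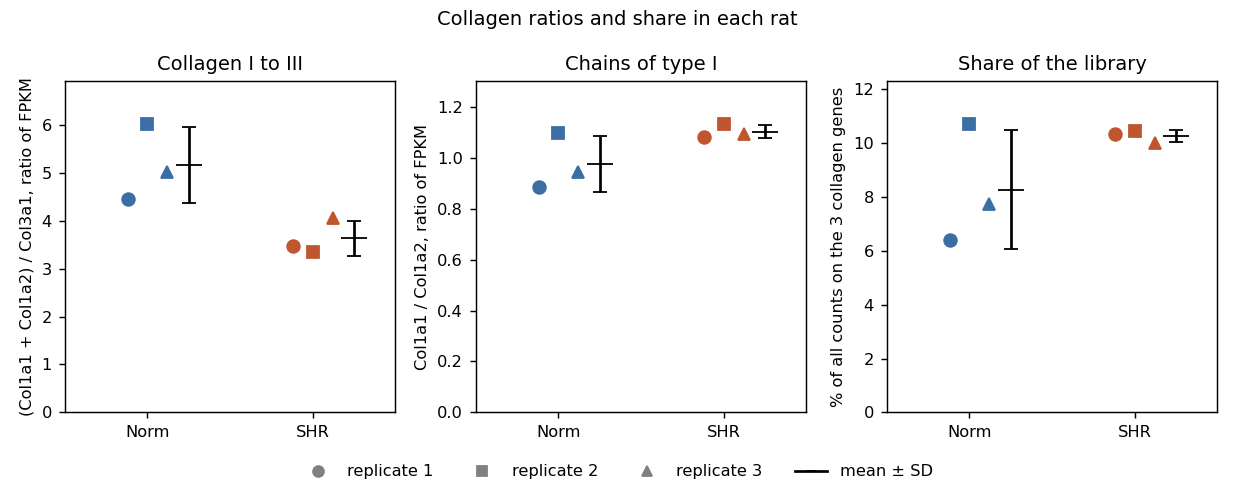
The collagen I to III ratio, the ratio of Col1a1 to Col1a2 (both of FPKM values) and the percent of all counts on the 3 collagen genes (vertical axes, from 0) in each rat, with the mean ± SD of each group in black. The collagen I to III ratio is 4.46 or more in Norm rats and 4.06 or less in SHR rats, and the other quantities overlap because of Norm replicate 2.

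Together the 3 collagen genes took 6.39%, 10.7% and 7.73% of all counts in Norm replicates 1, 2 and 3, and 10.3%, 10.5% and 10.01% in SHR replicates 1, 2 and 3. The 95% Wilson interval of each share reached at most 0.0146 percentage points to either side. The means were 8.27% ± 2.21 and 10.3% ± 0.233 (SD, n = 3 per group), and the exact permutation p was 0.4. Single Norm rats moved the difference between the group means either way, from 2.00 percentage points with all rats to 3.21 without Norm replicate 2 and 1.05 without Norm replicate 1. The log2FC of Col1a1 also moved either way. It was 0.55 without Norm replicate 2, with an adjusted p of 0.133 from edgeR, and 0.0372 without Norm replicate 1 and 0.0909 without Norm replicate 3, with adjusted p of 0.955 and 0.876.

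The groups also differed in how far their rats were spread. The coefficient of variation (CV, the SD as a percent of the mean) of Col1a1 in CPM was 36.7% among the Norm rats and 1.97% among the SHR rats. For Col1a2 it was 24.7% and 1.01%. Over all genes tested the median CV was 15.3% in the Norm group and 12.5% in the SHR group. In the SHR group 2.02% and 0.564% of genes had a lower CV than Col1a1 and Col1a2. Counting error adds more to the CV of genes with few counts, and genes of like abundance were not compared. In the Norm group 87.1% and 74.2% of genes had a lower CV than Col1a1 and Col1a2, so their spread in Norm rats exceeded that of most genes. The highest Norm rat had 1.90 times the Col1a1 CPM of the lowest, while the highest SHR rat had 1.04 times that of the lowest. Col3a1, with a CV of 15.4% and 9.42%, and Tgfb1, with 9.81% and 17.3%, did not share this contrast. No test was made of these spreads, since 3 rats per group give a poor estimate of an SD.

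**Figure D4:**
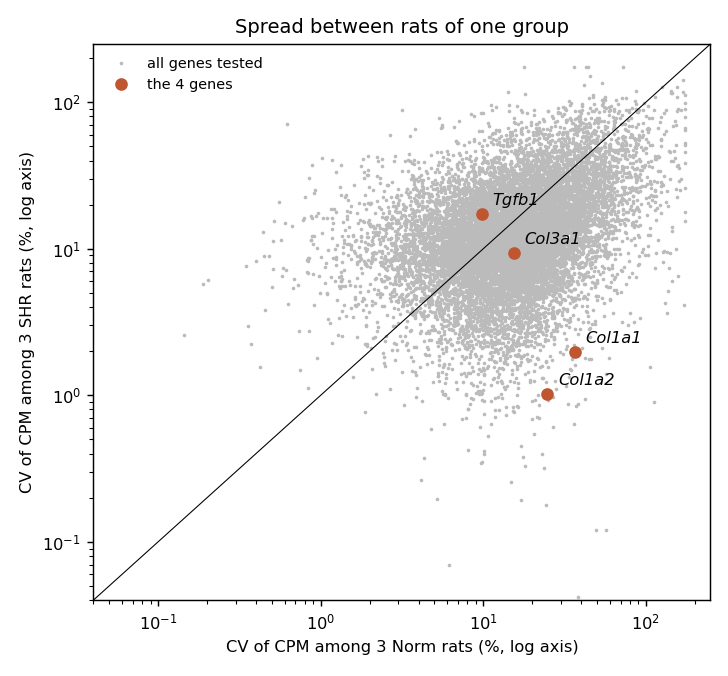
The CV of CPM among the 3 SHR rats (vertical axis) against that among the 3 Norm rats (horizontal axis) for all genes tested, both in percent on log axes, with a line of equality and the 4 genes in orange. Col1a1 (36.7% and 1.97%) and Col1a2 (24.7% and 1.01%) lie far below the line.

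Genes with a similar pattern were looked for by Pearson's r of log2 CPM over the 6 libraries, as a description only. The gene most like the mean of the 3 collagens was ENSRNOG00000031479 (r = 0.99), which stood at 431 CPM in the Norm group and 508 CPM in the SHR group on average. The gene most like Tgfb1 was ENSRNOG00000019724 (r = 0.99), at 152 CPM and 156 CPM. Likeness over 6 libraries, picked as the highest among all genes tested, is a weak measure, and these identifiers were not paired with names.

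The group difference of each gene under each setting is shown in the plot of settings. Col3a1 lay above 0 in all of them and was called in 3, and no setting called any of the other genes.

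**Figure D5:**
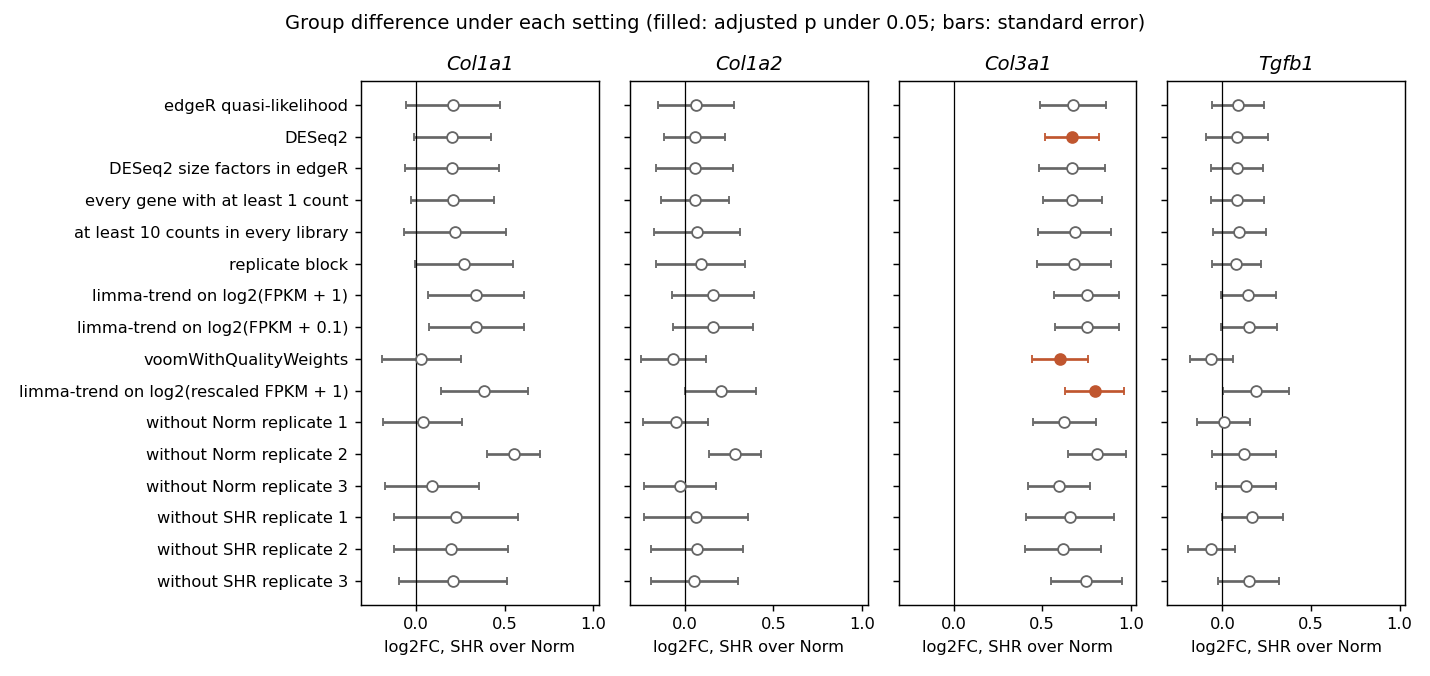
The log2FC (SHR over Norm, horizontal axes) of each gene with its standard error, under edgeR's quasi-likelihood test on all rats (top) and the other settings, with filled orange points where the adjusted p was under 0.05. Col3a1 ranges from 0.59 to 0.81, and Col1a2 and Tgfb1 fall on both sides of 0.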

How the data were processed

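RNA-seq of penile cavernous tissue from 3 Norm and 3 SHR rats was analysed, grouped by sample titles. The authors deposited, for each library, whole-number counts per Ensembl gene, not normalized, and FPKM values, which divide the counts by gene length and library size. The submitters' processing notes name fastp 0.18.0, Bowtie2 2.2.8, HISAT2 2.1.0, StringTie 1.3 and RSEM without their roles, and the genome build is not given in the sources used here. In 31 cases FPKM was above 0 at a count of 0, so counts may be rounded estimates. They were used as deposited. How reads shared between similar collagen genes were assigned is not given in the sources used here.

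The counts were tested with edgeR 4.0.16 (R 4.3.3) over all genes that passed filterByExpr, with TMM factors, the quasi-likelihood F test and Benjamini-Hochberg adjustment. Standard errors were derived from the F statistic, and log2 CPM had a prior count of 2. Ratios and shares were compared with exact two-sided permutation tests (SciPy 1.17.1). Alternatives were DESeq2 1.42.0, its size factors in edgeR, weaker and stricter filters, limma 3.58.1 on log2(FPKM + 1) and log2(FPKM + 0.1), voomWithQualityWeights, the replicate number as a block and leaving out each rat. FPKM rescaled to an equal sum per library was added after the data were seen. Scripts were tested on simulated data. P-values set the group difference against the spread between these rats, which edgeR, DESeq2 and limma estimate in part from all genes. The permutation tests only reassign the group labels.

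The 4 genes, the lists and the tests were chosen with earlier results of these data known. The rule for naming allowed the 4 genes and, without a table of names, 2 further identifiers. Lists of collagen, TGF-β and cell-type genes had been set and were not analysed here, because the reference tables do not pair Ensembl identifiers with symbols. Sequences are from RefSeq (GRCr8), where 2 of the 4 genes matched by symbol.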

Additional observations from a re-analysis of the deposited data

How the results depend on the processing

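The log2FC of Col3a1 (0.67, adjusted p = 0.0817 from edgeR) passed the threshold with DESeq2 (0.67), with voomWithQualityWeights (0.60) and with rescaled FPKM (0.80, adjusted p = 0.0327 from limma), and over all alternatives its adjusted p ran from 0.000512 to 0.290. The cause was not tested. With voomWithQualityWeights the log2FC of Col1a2 became -0.0661 and that of Tgfb1 -0.0625. With 1 rat left out, Col1a1 ran from 0.04 to 0.55, Col1a2 from -0.0522 to 0.28, Col3a1 from 0.59 to 0.81 and Tgfb1 from -0.0624 to 0.17. The log2 difference in the collagen I to III ratio then ran from -0.60 to -0.39, that in the Col1a1 to Col1a2 ratio from 0.11 to 0.27 and that in Tgfb1 per collagen I from -0.30 to 0.0411, positive only without Norm replicate 3. The difference in the share of counts on the collagens ran from 1.05 to 3.21 percentage points. Raw counts in place of FPKM kept the direction of all 3 ratios. The implied gene lengths hardly varied between libraries, so this was largely fixed in advance and adds no support.

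The number of genes called was 540 with edgeR, 1256 with DESeq2, 1586 with voomWithQualityWeights and 294 with the replicate number as a block. With 1 rat left out it ran from 161 to 632 and was 191 without Norm replicate 2, 214 without Norm replicate 3, 161 without SHR replicate 1 and 225 without SHR replicate 3. Each of these was fitted on 5 rats, and the causes of the other changes were not tested. With rescaled FPKM 70.3% of calls were higher in the SHR group, against 56.9% with edgeR. The replicate block gave a log2FC of 0.68 for Col3a1 (adjusted p = 0.161 from edgeR) and 0.27, 0.09 and 0.08 for Col1a1, Col1a2 and Tgfb1, and an exact paired p of 0.25 for the collagen I to III ratio. The labels do not state that rats of the same number form pairs. Deviations of same-numbered rats from their group means had an r across genes of -0.04, -0.15 and -0.12 for numbers 1, 2 and 3. No rat correlated best with its own number, but groups of 3 cannot decide whether a batch was shared.

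With 3 rats per group no exact test of a single value can go below p = 0.1, and Tgfb1, at 669 to 1146 counts, is the only one of the 4 genes for which counting error exceeds 1% of the value.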
